A study of Homo sapiens with 4 samples.

Results

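Angiogenic factors are secreted or membrane-bound proteins that act on blood vessels, and 9 genes encoding such factors were followed in the transcriptome of HCT116 cells treated with the piperine derivative HJ-4. HCT116 is an established human colorectal carcinoma line. The genes were VEGFA, VEGFB, VEGFC and PGF of the vascular endothelial growth factor family, together with ANGPTL4, ANG, EFNA1, FGF2 and PDGFA. They were taken by symbol from a table of 20263 gene IDs, and all 9 were present in it. The study also tested the compound on vessels of the chick chorioallantoic membrane, and the RNA data show which vessel-acting factors the tumor cells themselves transcribed. Wild-type HCT116 cells were given 32 µM HJ-4 for 24 h (2 libraries) or 0.1% DMSO, the vehicle, for 24 h (2 libraries). The paper's methods give the same dose of HJ-4, whereas the legend of its transcriptome figure gives a lower one. The experiment used 1 dose, 1 time point and 1 cell line with no vessels, so that it reports on the source of the factors and not on endothelial cells. The paper calls its replicates biological and describes triplicates, whereas 2 libraries per treatment were used here. The labels do not state whether these derive from independent cultures, so that each p-value reflects the scatter of these libraries alone and that scatter may be technical.

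Tumor cells recruit vessels by secreting ligands that bind tyrosine kinase receptors on endothelial cells and pericytes. VEGFA acts mainly through KDR, VEGFB and PGF through FLT1, VEGFC through FLT4 on lymphatic endothelium, FGF2 through the FGF receptors, PDGFA through PDGFRA, and EFNA1 through EPHA2. Hypoxia-inducible factors are well-known activators of VEGFA and ANGPTL4.

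The libraries held 34359889 and 33762230 counts with HJ-4 and 31120459 and 29769568 counts with DMSO. Levels are counts relative to library size (CPM), scaled by the trimmed mean of M-values (TMM), and fold changes are HJ-4 over DMSO on the log2 scale. Of the 20263 IDs, 14044 passed the filter on low counts and entered edgeR's quasi-likelihood test. Of the 9 factor genes, 8 were tested. VEGFC did not pass the filter. The epithelial keratin genes, EPCAM and CDH1 were abundant, with summed levels of the 8 colon epithelial markers of 4184 and 4374 CPM with HJ-4 and 4462 and 3967 CPM with DMSO, although 3 of the 8, VIL1, LGALS4 and CDH17, were below 1 CPM in each library. The 8 endothelial markers summed to between 11.8 and 13.4 CPM in the 4 libraries, most of it ESAM, while PECAM1 had at most 3 counts and EMCN none. Of the 7 fibroblast markers, COL1A1 alone was above 1 CPM, and DCN, LUM and COL1A2 had no counts. The 6 blood cell markers summed to at most 1.40 CPM in a library.

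By edgeR, 0 of the 8 tested factor genes reached an adjusted p under 0.05, which 0.0498% of all tested genes did. ANGPTL4, ANG and PDGFA were at lower levels in both HJ-4 libraries than in both DMSO libraries, with log2 fold changes of -0.73, -0.40 and -0.49. These 3 genes had an unadjusted p under 0.05, and all were lower with HJ-4. Among all tested genes, 7.93% were lower and 7.93% higher at that threshold, and no factor gene was higher with all 4 libraries. Without DMSO replicate 1, VEGFA was higher at that unadjusted threshold (log2 fold change 0.29, edgeR adjusted p = 0.20) and ANG did not reach it (log2 fold change -0.35, edgeR adjusted p = 0.31). The VEGF family members had log2 fold changes between 0.07 and 0.19, and FGF2 and EFNA1 had 0.22 and 0.10. DESeq2's Wald test called 1 of the 8 genes, ANGPTL4, at a rate of 4.09% over all tested genes, and limma-voom called 0. The HJ-4 and DMSO libraries did not overlap for 6 of the 8 genes, against 50.8% of all tested genes. For 2 genes, ANGPTL4 and ANG, the gap between the conditions exceeded the larger range within a condition, as it did for 20.3% of all tested genes, so that this share was near the background.

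**Figure D1:**
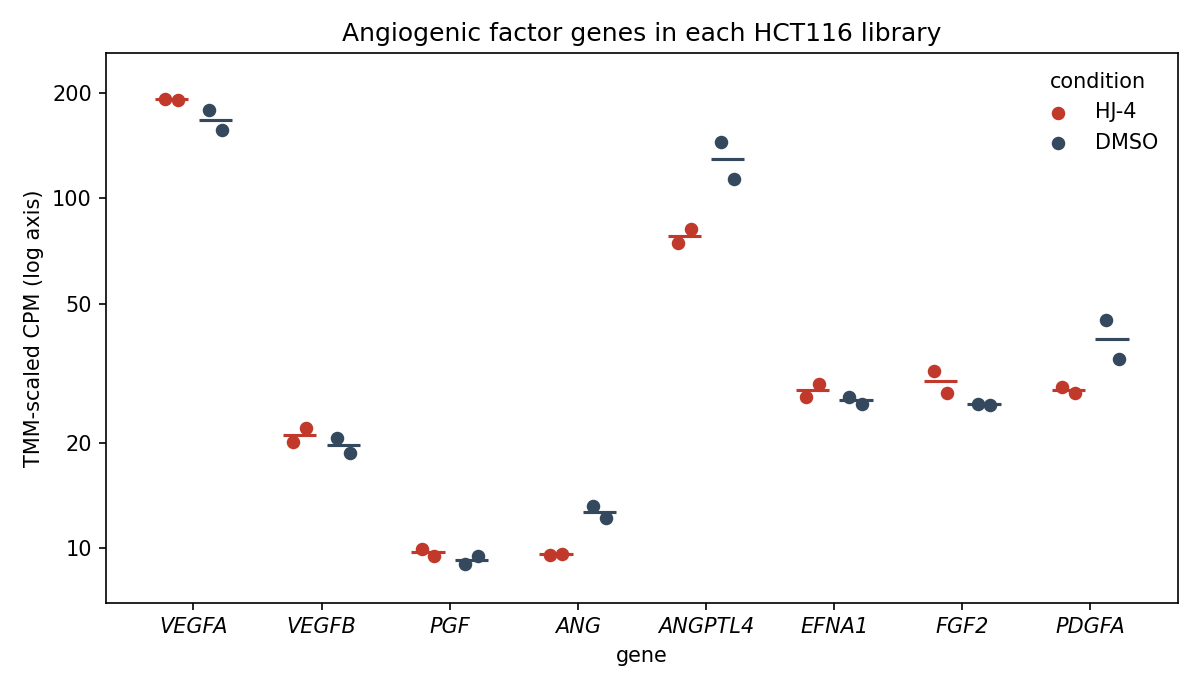
TMM-scaled CPM (log axis) of the 8 tested angiogenic factor genes in each library, with HJ-4 left of DMSO. Points are libraries and horizontal lines are means of 2 libraries. ANGPTL4 lies at 74.7 and 81.5 with HJ-4 and at 145 and 114 with DMSO, whereas the points of VEGFB and PGF overlap between the conditions.

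VEGFA, the principal mitogen of endothelial cells, had the highest CPM of the angiogenic factor genes, a measure that does not account for gene length. Its level was 193 and 191 CPM in the HJ-4 libraries, against 179 and 157 CPM in the DMSO libraries. The conditions did not overlap, but the gap between the conditions (0.09 on the log2 scale) was smaller than the distance between the 2 DMSO libraries (0.19). The means were 192 ± 1.35 CPM with HJ-4 and 168 ± 16.0 CPM with DMSO (SD, n = 2 each). Its log2 fold change was 0.19, with a 95% interval of -0.06 to 0.44 (edgeR adjusted p = 0.40). The interval thus reached from slightly below 0 to above it. In bulk RNA, fewer cells that express a gene and less of its RNA per cell cannot be told apart. VEGFA lies on chromosome 6 of GRCh38 from 43770184 to 43786487 on the plus strand in GENCODE v44, and shares 188 exon bases with an opposite-strand long noncoding RNA.

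VEGFB, a ligand of FLT1 and neuropilin 1, was at 20.1 and 22.1 CPM with HJ-4 and at 20.7 and 18.8 CPM with DMSO. The conditions overlapped, since the first HJ-4 library lay between the DMSO libraries. The log2 fold change was 0.10, with a 95% interval of -0.19 to 0.39 (edgeR adjusted p = 0.70). The gene lies on chromosome 11 from 64234584 to 64239264.

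PGF, placental growth factor, was at 9.98 and 9.50 CPM with HJ-4 and at 9.01 and 9.50 CPM with DMSO. Its second HJ-4 library and its second DMSO library were nearly equal. Its log2 fold change was 0.07, with a 95% interval of -0.24 to 0.39 (edgeR adjusted p = 0.80). PGF lies on the minus strand of chromosome 14 from 74941834 to 74955626.

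VEGFC, the lymphangiogenic member of the family, had 0 counts in each of the 4 libraries. A count of 0 allows up to 3 counts, or 0.0881 and 0.0899 CPM in the HJ-4 libraries and 0.0955 and 0.0997 CPM in the DMSO libraries, counting error only. VEGFC transcripts were thus not detectable at this depth in either condition, and no fold change was computed. VEGFD, the other lymphangiogenic ligand, was at 1.70 and 1.92 CPM with HJ-4 and at 0.987 and 1.33 CPM with DMSO (edgeR adjusted p = 0.34).

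Compared per length, the VEGF ligands depended on which length was used, because the exons of all VEGFA transcripts together span 14431 bases and its longest coding transcript 3609. The sum was taken over VEGFA, VEGFB, VEGFC and PGF, without VEGFD. VEGFA made up 52.8% and 50.7% of this summed CPM per kb with HJ-4, and 50.8% and 49.3% with DMSO, when the union of exons was used. With the longest coding transcript, VEGFA made up 76.0% and 74.9% with HJ-4 and 74.9% and 73.2% with DMSO. On either length the shares of the conditions lay within 4 percentage points of each other.

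ANGPTL4, angiopoietin-like 4, is a secreted inhibitor of lipoprotein lipase that PPAR receptors and hypoxia-inducible factors activate and that also acts on vessel permeability. It lies on chromosome 19 from 8363289 to 8374370. Its level was 74.7 and 81.5 CPM in the HJ-4 libraries, against 145 and 114 CPM in the DMSO libraries. Both HJ-4 libraries lay below both DMSO libraries, with a gap of 0.48 on the log2 scale, against 0.35 between the DMSO libraries. The mean was 78.1 ± 4.81 CPM with HJ-4 and 129 ± 22.2 CPM with DMSO (SD, n = 2 each), so that the fitted level with HJ-4 was 0.604 times that with DMSO. The log2 fold change was -0.73 (standard error 0.14), with a 95% interval of -1.09 to -0.36. Its unadjusted p was 0.0037 and its adjusted p 0.16 from edgeR, and 94.7% of tested genes showed a log2 fold change of that size or smaller. The adjusted p was 0.00096 with DESeq2 and 0.16 with limma-voom. Its log2 fold change was -0.54 without DMSO replicate 1 and -0.89 without DMSO replicate 2, and it did not pass the adjusted threshold in edgeR without either.

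The upstream sequence of ANGPTL4 is shown because this gene had the largest fold change of the 9. It is given 5′ to 3′ from RefSeq on GRCh38.p14, chr19:8363905-8364154, the 250 bases before the RefSeq start on the plus strand, with the match to a core of the hypoxia-inducible factor motif in capitals.
ANGPTL4 upstream: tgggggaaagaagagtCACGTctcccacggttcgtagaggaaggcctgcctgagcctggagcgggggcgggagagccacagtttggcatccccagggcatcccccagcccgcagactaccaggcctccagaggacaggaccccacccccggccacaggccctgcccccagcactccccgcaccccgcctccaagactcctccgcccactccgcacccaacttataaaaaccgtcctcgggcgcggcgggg

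The match is ACGTG on the opposite strand, at position -234 from the start. In GENCODE v44 ANGPTL4 has an earlier start, at 8363289, so that the printed bases lie within the gene as annotated there. Windows of 300 bases, 250 before and 50 after a start, were searched on both strands for ACGTG and GCGTG, the cores bound by hypoxia-inducible factors, for the E-box CACGTG, which contains ACGTG, and for TGATGNAAN, the composite element of C/EBP and ATF factors such as ATF4. Windows were matched for 8 of the 9 genes, all but VEGFA, 14 windows in all. Each of the 8 genes held ACGTG or GCGTG in at least 1 window, as did 52.4% of all 27305 genes with windows. ACGTG alone was held by 21.4% of all 35116 windows, GCGTG by 36.5%, and either by 48.4%. None of the 14 windows held CACGTG or the C/EBP and ATF element, which 7.26% and 3.61% of all windows held. At shares this low, 14 windows are too few for an absence to be informative. PDGFA had 4 windows and ANG 3, and the windows of the genes had GC contents of 45.7% to 84.7%, against a median of 58.7% over all windows, both of which bear on how often these short matches occur. A match is a description of letters and says nothing about binding.

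One match of each of 5 further genes is shown for comparison with ANGPTL4, to let the neighborhoods of the core be read beside each other, with the core in capitals and 12 bases on each side.
ANG, position 32 from the first start, chr14:20684196-20684224: cagcgaataagtACGTGgcagatggtgct
PDGFA, position -186 from a start, chr7:520396-520424, minus strand: ctgggcgggggcGCGTGgcagccgccagg
FGF2, position -156, chr4:122826663-122826691: tgtcgcgcgcttGCGTGttgtggccgaac
VEGFB, position -61, chr11:64234511-64234539: ccggtggggagcGCGTGtctgggtcacat
EFNA1, position -229, chr1:155127635-155127663: ctcacaaagctcCACGCagacccacaagt
The EFNA1 letters are GCGTG read on the opposite strand. ANGPTL4 and ANG held ACGTG, and ANG held GCGTG as well in another window.

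The partners of ANGPTL4 in lipid handling differed widely in level in these cells. LPL, whose product ANGPTL4 inhibits, and LIPC had no counts in any library, and ANGPTL8 and GPIHBP1 had at most 14. Of 7 genes of this axis 2 were tested. The endothelial lipase gene LIPG was at 60.2 and 57.1 CPM with HJ-4, against 38.7 and 35.5 CPM with DMSO, and LMF1 was at 11.7 and 12.2 CPM with HJ-4, against 15.1 and 14.5 CPM with DMSO. LIPG showed a log2 fold change of 0.66 (edgeR adjusted p = 0.12) and the lipase maturation factor gene LMF1 of -0.31 (edgeR adjusted p = 0.30). With an unadjusted p under 0.05 in edgeR, LIPG was higher and LMF1 lower, against 7.93% of all tested genes in each direction. By edgeR and limma-voom 0 of the 2 passed. DESeq2 called 1 higher and 0 lower, against 327 higher and 247 lower of all 14044 tested genes. Of 14 genes that PPAR receptors activate, 10 were tested, with 5 positive and 5 negative fold changes and a median of -0.03, against 0.00 over all tested genes. By edgeR, DESeq2 and limma-voom 0 of the 10 passed, and 1, CREB3L3, was higher with an unadjusted p under 0.05 in edgeR (log2 fold change 1.15). CREB3L3 rested on at most 49 counts in a library. PDK4, the mitochondrial kinase gene often induced together with ANGPTL4, was at 9.19 and 10.7 CPM with HJ-4 and at 10.2 and 11.5 CPM with DMSO and overlapped.

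ANG encodes angiogenin, a secreted ribonuclease that enters cells through the receptor PLXNB2 and is held inactive by the ribonuclease inhibitor RNH1. Its level was 9.57 and 9.65 CPM with HJ-4, against 13.2 and 12.2 CPM with DMSO. The conditions did not overlap, and the gap of 0.34 on the log2 scale exceeded the larger range within a condition, 0.11. The log2 fold change was -0.40 (standard error 0.12), with a 95% interval of -0.71 to -0.10 (unadjusted p = 0.019 and edgeR adjusted p = 0.24). ANG lies on chromosome 14 from 20684177 to 20698971 and shares exons with RNASE4 on the same strand, 292 bases or 20.3% of its own exon bases, and with a second protein-coding gene there, ENSG00000259171. Its count is therefore uncertain, because the counting could assign shared reads to either gene. RNASE4 was at 17.1 and 17.5 CPM with HJ-4 and at 16.8 and 20.9 CPM with DMSO, so that it overlapped between the conditions (log2 fold change -0.12, edgeR adjusted p = 0.68). ENSG00000259171 showed a log2 fold change of -0.13 (edgeR adjusted p = 0.72). PLXNB2 and RNH1 had overlapping conditions, with mean levels of 293 and 64.7 CPM with HJ-4, against 299 and 59.5 CPM with DMSO.

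EFNA1 encodes ephrin-A1, a membrane-anchored ligand of EPHA2 that guides vessel assembly. It was at 27.1 and 29.5 CPM with HJ-4 and at 27.1 and 25.9 CPM with DMSO. The lower HJ-4 library and the higher DMSO library were separated by 0.0013 on the log2 scale, which is no more than contact between the conditions. Its log2 fold change was 0.10, with a 95% interval of -0.16 to 0.35 (edgeR adjusted p = 0.66). Its receptor gene EPHA2 was at 520 and 522 CPM with HJ-4, against 460 and 392.3 CPM with DMSO (log2 fold change 0.29, edgeR adjusted p = 0.29). EFNA1 lies on chromosome 1 from 155127876 to 155134899.

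FGF2 encodes basic fibroblast growth factor, which lacks a signal peptide and is stored on heparan sulfate. It was at 32.1 and 27.8 CPM with HJ-4, against 25.9 and 25.7 CPM with DMSO. Both HJ-4 libraries were higher than both DMSO libraries, but they lay further from each other (0.20 on the log2 scale) than from the DMSO libraries (a gap of 0.10). The log2 fold change was 0.22, with a 95% interval of -0.07 to 0.50 (edgeR adjusted p = 0.41). FGF2 lies on chromosome 4 from 122826682 to 122898236 and shares 804 exon bases, 11.8% of its own, with NUDT6 on the opposite strand. No source used here states a strand setting for the counting, and reads of the shared bases may therefore belong to either gene. NUDT6 was at 7.46 and 5.04 CPM with HJ-4 and at 3.95 and 8.34 CPM with DMSO.

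PDGFA encodes the A chain of platelet-derived growth factor, a ligand of PDGFRA on stromal cells. Its level was 28.9 and 27.8 CPM with HJ-4, against 44.8 and 34.7 CPM with DMSO. Both HJ-4 libraries lay below both DMSO libraries, and the DMSO libraries were further apart (0.37 on the log2 scale) than the gap between the conditions (0.27). Its log2 fold change was -0.49 (standard error 0.15), with a 95% interval of -0.87 to -0.11 (unadjusted p = 0.022 and edgeR adjusted p = 0.25). Without DMSO replicate 1, the higher of the DMSO libraries, it was -0.29. PDGFA lies on the minus strand of chromosome 7 from 497258 to 520296.

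DMSO replicate 1 was the higher DMSO library for ANGPTL4, ANG and PDGFA, and also for VEGFA, VEGFB, EFNA1 and FGF2. When each library was left out in turn, the signs of all 8 fold changes stayed the same in each case.

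**Figure D2:**
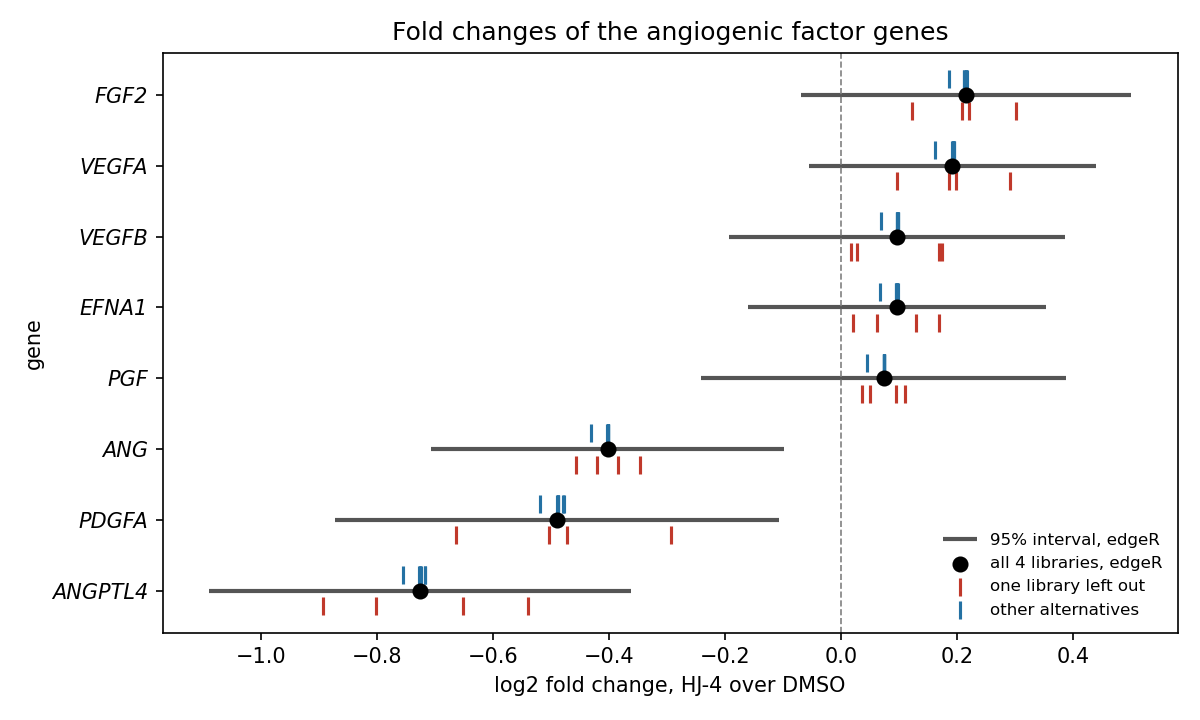
Log2 fold change, HJ-4 over DMSO, of the 8 tested angiogenic factor genes. Black points and lines are edgeR estimates with 95% intervals from all 4 libraries, red ticks leave out 1 library each, and blue ticks are the other alternatives. The intervals of ANGPTL4 (-1.09 to -0.36), PDGFA and ANG lie below 0, and those of the other 5 genes include 0.

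Levels were next set in order per length, as TMM-scaled CPM per kb of exons (union of all transcripts). ANGPTL4 was the highest in both conditions, at 31.6 CPM per kb with HJ-4 and 52.2 with DMSO. VEGFA was at 13.3 CPM per kb with HJ-4 and 11.6 with DMSO, and EFNA1 was at 13.1 and 12.2, and the libraries of VEGFA and EFNA1 overlapped within each condition. VEGFB followed at 10.7 CPM per kb with HJ-4 and 10.0 with DMSO. ANG was at 6.68 CPM per kb with HJ-4 and 8.83 with DMSO, and PDGFA at 6.17 and 8.66, and the libraries of ANG and PDGFA overlapped with DMSO. FGF2 was at 4.41 CPM per kb with HJ-4 and 3.79 with DMSO, and PGF was the lowest of the detected genes on this length at 1.68 and 1.60. With the length of the longest coding transcript in place of the union of exons, VEGFA stood first with HJ-4 (53.1 CPM per kb, against 41.7 for ANGPTL4) and ANGPTL4 first with DMSO (69.1, against 46.5 for VEGFA). No library of ANGPTL4 overlapped one of VEGFA within a condition on either length. This exchange of first place was seen on the coding length only, and the length of VEGFA transcripts in these cells is not known from gene counts.

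**Figure D3:**
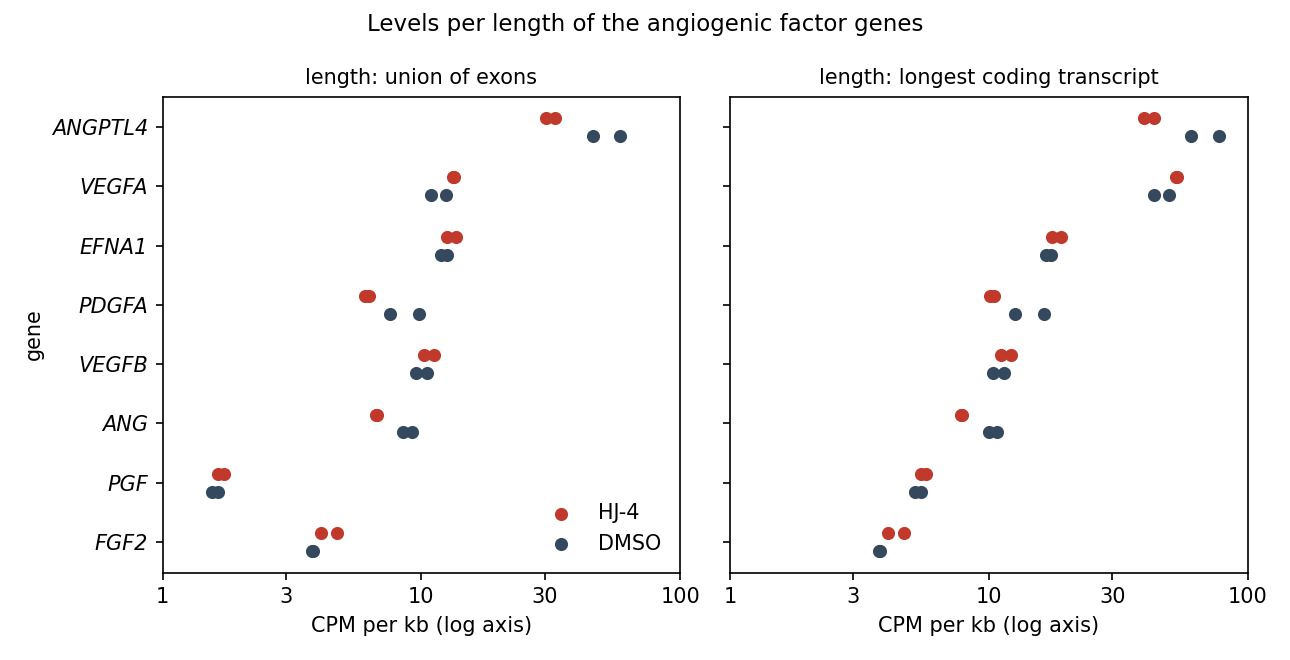
TMM-scaled CPM per kb (log axis) of the 8 detected angiogenic factor genes in each library, with length taken as the union of exons (left) or the longest coding transcript (right). Red points are HJ-4 and dark points DMSO libraries. VEGFA moves from 13.3 to 53.1 CPM per kb with HJ-4 between the 2 lengths, while FGF2 has the same length in both.

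The receptors of the VEGF ligands and of PDGFA had few counts in the tumor cells, whereas FGFR1, a receptor of FGF2, and EPHA2, a receptor of EFNA1, were abundant. FLT1 had 2 and 0 counts with HJ-4 and none with DMSO, FLT4 at most 6 counts in a library, PDGFRA at most 4, and KDR at most 23. Of the co-receptors, NRP1 was at 17.6 and 15.6 CPM with HJ-4 and at 14.6 and 13.8 CPM with DMSO, and NRP2 was below 2 CPM in each library. The FGF receptor gene FGFR1 was at 119 and 116 CPM with HJ-4 and at 119 and 118 CPM with DMSO, and the EFNA1 receptor gene EPHA2 had the levels given above. Other genes of these receptor families differed in level. The means with HJ-4 were 111 CPM for FGFR4, 21.5 for FGFR2 and 3.31 for EPHA4, and EPHA7 had no counts. Of 24 receptor and co-receptor genes, 18 were tested, with 11 positive and 7 negative fold changes and a median of 0.06. By edgeR, DESeq2 and limma-voom 0 passed, and with an unadjusted p under 0.05 in edgeR EPHA2 was higher and EPHA1 lower (log2 fold change -0.28).

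Among 35 other ligands known to act on vessels, 28 were tested, and none passed in edgeR or limma-voom. At an unadjusted p under 0.05 in edgeR, 2 were higher and 2 lower, against 7.93% of all tested genes in each direction. The chemokine gene CXCL8 was at 22.2 and 19.5 CPM with HJ-4, against 11.2 and 9.64 CPM with DMSO (log2 fold change 1.00, edgeR adjusted p = 0.11). HBEGF, an EGF receptor ligand, showed a log2 fold change of 0.50. DESeq2 called 2 ligands of this list higher and 0 lower, against 327 higher and 247 lower of all 14044 tested genes. The Notch ligand gene DLL4 and the adrenomedullin gene ADM had log2 fold changes of -0.53 and -0.45. The median of the list was -0.05.

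Inhibitors of vessel growth had fold changes of both signs, 8 positive and 6 negative. Of 18, 14 were tested, and 0 passed in edgeR or limma-voom. THBS1, the gene of the antiangiogenic matrix protein thrombospondin 1, was at 18.2 and 19.3 CPM with HJ-4, against 30.3 and 27.3 CPM with DMSO (log2 fold change -0.62, edgeR adjusted p = 0.15). DESeq2 called 1 gene of the list lower and 0 higher, against 247 lower and 327 higher of all 14044 tested genes. SPARC, a matrix protein gene, showed a log2 fold change of 1.29 and the semaphorin gene SEMA3B of 0.28. Both were higher with an unadjusted p under 0.05 in edgeR, and THBS1 was lower (unadjusted p = 0.0022). Among all tested genes, 7.93% were higher and 7.93% lower at that threshold. SPARC rested on at most 106 counts in a library. The median of the list was 0.08.

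Genes whose products release or cleave the ligands had fold changes of both signs, 7 positive and 7 negative. FGFBP1, a secreted carrier that frees FGF2 from heparan sulfate, was at 10.7 and 9.23 CPM with HJ-4, against 3.63 and 3.66 CPM with DMSO (log2 fold change 1.45, standard error 0.15, edgeR adjusted p = 0.079). The plasminogen activator gene PLAU was at 165 and 170 CPM with HJ-4, against 98.2 and 88.3 CPM with DMSO (log2 fold change 0.85, edgeR adjusted p = 0.079), and PLAT showed a log2 fold change of 0.67. The heparanase gene HPSE showed a log2 fold change of -0.33. Of 14 genes tested of 16, 0 passed in edgeR or limma-voom. With an unadjusted p under 0.05 in edgeR, 3 were higher and 2 lower, against 7.93% of all tested genes in each direction. The Wald test of DESeq2 passed 3 of the 14 as higher and 0 as lower, against 327 and 247 of all 14044 tested genes. The median of the list was 0.00.

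Known regulators of the factor genes included the only gene of these lists that passed in edgeR and limma-voom. ZNF24, a zinc finger gene described as a repressor of VEGFA transcription in human breast cancer cells, rose with HJ-4, to 159 and 151 CPM, against 32.0 and 25.8 CPM with DMSO (log2 fold change 2.42, edgeR adjusted p = 0.032). Beside it, VEGFA had the log2 fold change of 0.19 given above. Without either HJ-4 library edgeR called no gene of the whole table. Of 19 regulators tested, 3 were higher and 3 lower with an unadjusted p under 0.05 in edgeR, against 7.93% of all tested genes in each direction. The Wald test of DESeq2 passed 3 of the 19 as higher and 2 as lower, against 327 and 247 of all 14044 tested genes. The prolyl hydroxylase gene EGLN1, whose product marks hypoxia-inducible factors for degradation and is itself a hypoxia target, showed a log2 fold change of -0.72, ATF4 of 0.42 and PPARG of 0.45, with adjusted p of 0.10, 0.15 and 0.17 from edgeR. HIF1A was at 220 and 204 CPM with HJ-4 and at 113 and 176 CPM with DMSO (edgeR adjusted p = 0.32).

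VEGFA and ANGPTL4, both hypoxia-inducible, had fold changes of opposite sign, although the 95% interval of VEGFA (-0.06 to 0.44) included 0. Of 20 other hypoxia targets tested, 17 had negative and 3 positive fold changes, with a median of -0.39, against 0.00 over all tested genes. The mitophagy receptor gene BNIP3 was at 97.3 and 105 CPM with HJ-4, against 185 and 171 CPM with DMSO (log2 fold change -0.82, edgeR adjusted p = 0.086). The glycolytic gene PGK1 showed a log2 fold change of -0.64 and the glucose transporter gene SLC2A1 of -0.48, whereas the clock repressor gene BHLHE40 had 0.48. By edgeR and limma-voom 0 of the 20 passed. With an unadjusted p under 0.05 in edgeR, 12 were lower and 1 higher, against 7.93% of all tested genes in each direction. DESeq2 called 8 lower and 1 higher, against 247 lower and 327 higher of all 14044 tested genes. The difference between VEGFA and these hypoxia targets was not tested.

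**Figure D4:**
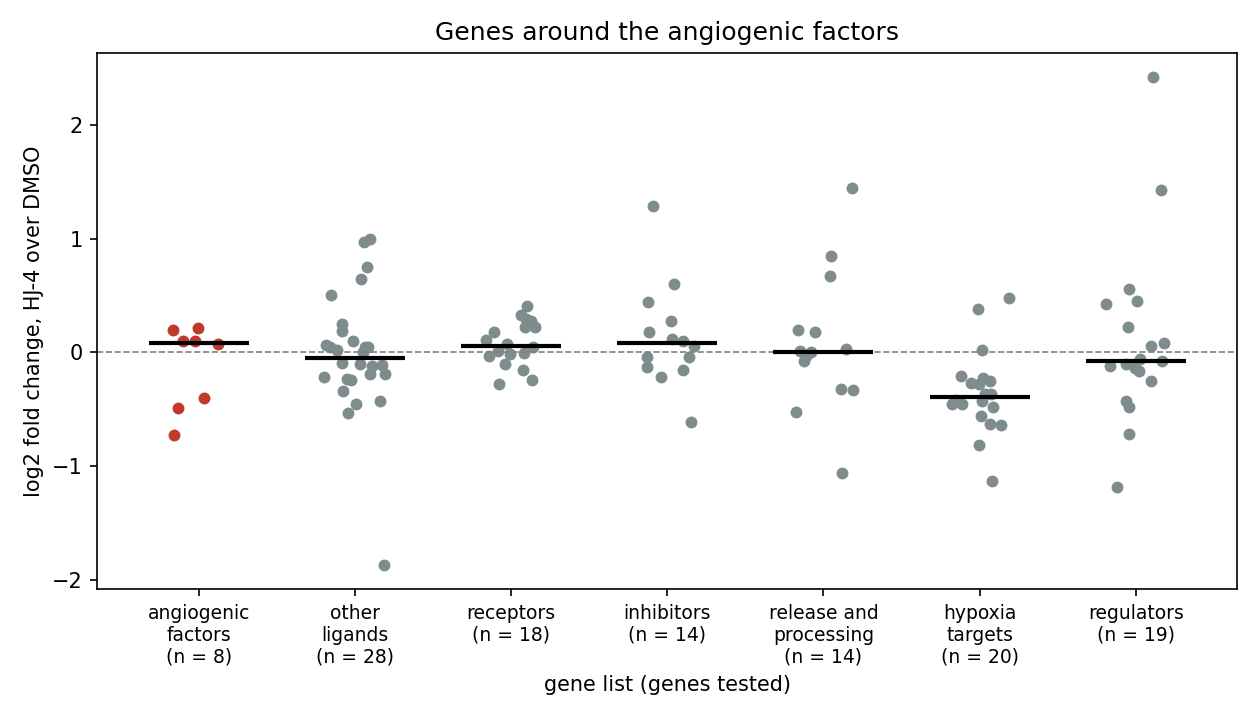
Log2 fold change, HJ-4 over DMSO, of every tested gene in 7 lists, with the angiogenic factors in red. Points are genes and horizontal lines are medians. The median is 0.08 for the angiogenic factors and -0.39 for the hypoxia targets, and the highest point among the regulators is ZNF24 at 2.42.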

How the data were processed

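The deposited table holds raw counts, whole numbers of reads per Ensembl gene ID, for 2 HJ-4 and 2 DMSO libraries. The paper describes STAR and featureCounts on GRCh38, and the submitters' notes name HISAT2, bedtools and RSEM; which made the counts, the annotation and the strand setting are not given in the sources used here. Columns were matched to samples by library name. Symbols, coordinates and lengths came from GENCODE v44 (20148 of 20263 IDs matched). Promoter sequences came from RefSeq on GRCh38.p14.

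Genes were kept by filterByExpr, scaled by TMM and tested in edgeR 4.0.16 (R 4.3.3) with glmQLFit and glmQLFTest, condition as the only term, two-sided, with Benjamini-Hochberg adjustment over all 14044 genes tested. The paper names limma; edgeR was used because the values are counts. Standard errors came from the F statistic and 95% intervals from the test's degrees of freedom. An exact permutation test of 2 against 2 libraries cannot go below p = 0.333 and was not used. The 2 libraries of each treatment differed beyond counting error (chi-square over its degrees of freedom 21.9 for HJ-4 and 36.5 for DMSO). The scripts were tested on simulated data.

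The fit was repeated with limma-voom (limma 3.58.1), with the Wald test of DESeq2 1.42.0, under the size factors of that tool or total counts as scaling, without a filter or on genes averaging 5 CPM or more, with the replicate number as a block, and without each library. Levels were repeated under a second gene length. The members and lists were chosen with earlier results of these data known. All 9 factor genes are named, with up to 4 genes of each other list at the smallest p under 0.05 and 8 receptors; VEGFD, PDK4, HIF1A, RNH1 and PLXNB2 were added after their values were seen. Chick membrane, protein and viability experiments were not analysed here.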

Additional observations from a re-analysis of the deposited data

How the results depend on the processing

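All 8 fold changes kept their sign under each of the 11 alternatives. ANGPTL4 alone changed its side of the adjusted threshold, with DESeq2 only (log2 fold change -0.73, adjusted p = 0.00096), so that the number of factor genes called was 1 with DESeq2 and 0 under the other 10; its adjusted p in those ranged from 0.059 to 0.64. The number at an unadjusted p under 0.05 was 3 with all libraries and ranged from 1 to 3 when a library was left out, the 1 occurring without either HJ-4 library. Without DMSO replicate 1 the 3 were ANGPTL4 and PDGFA, lower, and VEGFA, higher, while ANG did not reach that threshold. The number of genes called in the whole table was 7 by edgeR, 31 with the replicate block, 12 with no filter and 574 with DESeq2, and ranged from 0 to 88 when a library was left out. Same-numbered libraries deviated together with a correlation of -0.071, so the numbers were not taken as pairs, and the replicate block changed no call of a factor gene. Leaving out DMSO replicate 2 gave VEGFA a log2 fold change of 0.10 and leaving out DMSO replicate 1 gave 0.29, and FGF2 had 0.12 without HJ-4 replicate 1. Over the libraries left out, the log2 fold change ranged from 0.02 to 0.17 for VEGFB, from 0.02 to 0.17 for EFNA1, from 0.04 to 0.11 for PGF and from -0.66 to -0.29 for PDGFA. With total counts in place of TMM the median of all genes was -0.03. With 2 libraries per condition the width of the intervals limits what can be said of the genes with small fold changes; where 1 library was left out, the lone library was assumed to vary like the other condition.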

Other observations

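The genes most like ANGPTL4 over the 4 libraries, by the Euclidean distance of centered log2 CPM among 11181 other genes averaging 5 CPM or more, were CRY2, BCKDHA and ZNF367. The clock repressor gene CRY2 was at 30.7 and 34.2 CPM with HJ-4 and at 62.2 and 49.5 CPM with DMSO (distance 0.060). BCKDHA, a gene of branched-chain amino acid breakdown, was at 45.1 and 50.1 CPM with HJ-4 and at 89.0 and 74.4 CPM with DMSO (distance 0.089). The zinc finger gene ZNF367 was at 13.01 and 13.34 CPM with HJ-4 and at 24.0 and 19.9 CPM with DMSO (distance 0.092). With 4 libraries such likeness describes these libraries only.

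The 9 factor genes summed to 395 and 399 CPM with HJ-4 and to 465 and 397 CPM with DMSO. The sums overlapped, and VEGFA and ANGPTL4 made up most of them. These 2 genes had fold changes of opposite sign, although the 95% interval of VEGFA included 0.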
